A study of Mus musculus with 8 samples.

Results

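Selectin ligands are glycans that let leukocytes bind the selectins on vessel walls, platelets and other leukocytes. They are built stepwise on carrier proteins of the cell surface: an O-linked GalNAc is extended with galactose to the core 1 structure, a branch is added to give core 2, and the branch is extended, sialylated and fucosylated until it carries sialyl Lewis x. In CD8+ T cells the branching step is a known mark of activation, since resting cells carry mostly unbranched, sialylated core 1 glycans and effector cells carry core 2 glycans on the same proteins. The genes described here encode the enzymes and carriers of this route. *Gcnt1* encodes the transferase that adds the core 2 branch. *C1galt1* encodes the galactosyltransferase that makes core 1, and *C1galt1c1* encodes Cosmc, the chaperone that this enzyme needs. *St3gal1*, *St3gal4* and *St3gal6* encode sialyltransferases, *Fut7* encodes the fucosyltransferase of the last step, and *Selplg* and *Spn* encode the mucin-like carriers PSGL-1 and CD43.

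These 9 genes were found by their symbols among the 55335 gene rows of the deposited count table, and all 9 passed the filter on low counts. They were selected on their measured difference between KO and WT in these same samples, with earlier results known. The difference between genotypes in these genes is therefore given as a description and with no p-value.

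RNA was taken from CD8+ tumor-infiltrating lymphocytes (TILs) of C57BL/6 mice carrying implanted MC38 tumors, a colon carcinoma line of the same strain. The WT group were Lsd1f/f littermates without Cre, and the KO group were Cd4-Cre+Lsd1f/f mice, in which Cre under *Cd4* control removes LSD1 from all T cells that pass through the CD4-expressing stage, so that CD4 T cells lack it as well. Both groups carried the floxed *Kdm1a* alleles (*Kdm1a* encodes LSD1, a histone demethylase). There were 4 samples per group; each WT sample (S1 to S4) held cells of 2 mice and each KO sample (S5 to S8) cells of 1 mouse, so that pooling and genotype cannot be told apart. Mice were 6 to 10 weeks old. The sample protocol gave day 18 after implantation for the harvest, whereas the series design gave 14 days. About 10000 to 20000 cells per sample were sorted as CD45.2+TCRβ+CD8+CD44+PD-1+, and ribosomal RNA was depleted before library preparation.

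Library totals ranged from 11657807 to 30295406 counts, and S8 (KO) was the largest. Levels are given as CPM, counts relative to the library total after TMM scaling, or as RPKM, the same value per kilobase of exon, where 2 genes are compared with each other. At these depths 3 counts stand for 0.106 to 0.250 CPM. *Kdm1a* was at 44.6, 47.2, 42.7 and 44.9 CPM in the WT samples, in the order S1 to S4, and at 25.2, 30.5, 32.0 and 34.8 CPM in the KO samples, in the order S5 to S8. Values by sample are given in these orders throughout. *Kdm1a* was lower in all 4 KO samples, at 0.684 of the WT level, and did not pass the rule for a call given further on (log2 fold change -0.55, SE 0.14, edgeR quasi-likelihood adjusted p = 0.0163). Counts per gene include reads from any exons that Cre leaves in place. Reads were not split by exon, and the source of the remaining *Kdm1a* reads in KO was not tested. The sorted population showed its own markers in every sample: 7 of 7 CD8 T cell genes were tested, and their summed level was 3174 to 3814 CPM in WT and 2857 to 3621 CPM in KO. The sum includes *Cd44*, called higher in KO (means 433 and 785 CPM), and none of the others was called. *Cd8b1* and *Cd3g* were lower in every KO sample, at 0.762 and 0.779 of WT. *Pdcd1*, *Cd8a* and *Cd3e* were at 0.796, 0.828 and 0.836 with overlapping groups, and *Cd3d* was at 1.01. Markers of other cells were also seen and are given beside the results they move with.

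The promoters of *Gcnt1* and *Fut7*, the members with the largest increase in KO, and of *C1galt1*, the enzyme that provides the acceptor of the Gcnt1 step, are shown first. The RefSeq table used here (GRCm38.p6) holds 3 transcription starts for *Gcnt1*, 2 for *Fut7* and 1 for *C1galt1*. Each window runs from 250 bases before to 50 bases after a start and is written 5′ to 3′ on the strand of the gene. Capitals mark CG dinucleotides, the sites of DNA methylation in mammals.
*Gcnt1* upstream start, chr19:17372795-17373094, minus strand: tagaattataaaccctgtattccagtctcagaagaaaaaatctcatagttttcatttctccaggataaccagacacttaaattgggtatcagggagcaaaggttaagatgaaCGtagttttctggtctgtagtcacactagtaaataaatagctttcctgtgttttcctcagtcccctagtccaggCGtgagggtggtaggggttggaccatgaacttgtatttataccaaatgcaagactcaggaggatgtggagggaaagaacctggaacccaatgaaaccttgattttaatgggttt
*Gcnt1* middle start, chr19:17356618-17356917, minus strand: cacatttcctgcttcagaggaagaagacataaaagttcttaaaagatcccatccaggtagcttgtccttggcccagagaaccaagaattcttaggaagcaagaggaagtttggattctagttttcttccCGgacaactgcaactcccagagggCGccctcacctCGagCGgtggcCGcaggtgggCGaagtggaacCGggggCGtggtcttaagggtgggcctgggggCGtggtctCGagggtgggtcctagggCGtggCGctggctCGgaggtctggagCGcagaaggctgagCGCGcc
*Gcnt1* downstream start, chr19:17339456-17339755, minus strand: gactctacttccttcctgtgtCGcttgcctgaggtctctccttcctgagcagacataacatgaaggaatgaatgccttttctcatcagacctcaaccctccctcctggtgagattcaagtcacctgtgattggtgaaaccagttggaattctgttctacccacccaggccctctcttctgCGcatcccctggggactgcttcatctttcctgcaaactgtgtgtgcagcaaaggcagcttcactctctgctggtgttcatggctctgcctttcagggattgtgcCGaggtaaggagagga
*Fut7* upstream start, chr2:25422992-25423291, plus strand: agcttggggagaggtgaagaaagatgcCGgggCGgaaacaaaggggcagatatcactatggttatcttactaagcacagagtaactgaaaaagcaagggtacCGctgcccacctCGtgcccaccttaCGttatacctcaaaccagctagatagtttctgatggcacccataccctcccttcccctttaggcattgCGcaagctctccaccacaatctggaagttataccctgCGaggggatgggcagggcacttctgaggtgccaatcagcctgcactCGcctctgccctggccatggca
*Fut7* downstream start, chr2:25423444-25423743, plus strand: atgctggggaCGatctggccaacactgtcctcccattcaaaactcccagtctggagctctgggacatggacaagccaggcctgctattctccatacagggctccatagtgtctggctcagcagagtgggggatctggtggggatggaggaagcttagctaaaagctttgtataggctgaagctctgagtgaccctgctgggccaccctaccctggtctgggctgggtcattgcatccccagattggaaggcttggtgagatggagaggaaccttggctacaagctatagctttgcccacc
*C1galt1*, chr6:7844974-7845273, plus strand: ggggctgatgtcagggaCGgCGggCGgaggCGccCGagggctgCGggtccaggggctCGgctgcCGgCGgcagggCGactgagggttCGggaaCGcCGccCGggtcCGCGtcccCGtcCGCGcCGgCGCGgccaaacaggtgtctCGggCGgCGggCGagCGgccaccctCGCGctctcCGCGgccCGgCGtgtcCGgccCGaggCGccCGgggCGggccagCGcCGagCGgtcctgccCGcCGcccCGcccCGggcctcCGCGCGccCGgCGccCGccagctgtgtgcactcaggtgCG

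The capitals show how unlike these starts are. The upstream *Gcnt1* window held 2 CG dinucleotides and the downstream window 3, whereas the middle window held 16. The *Fut7* windows held 8 and 1, and the *C1galt1* window held 52, more than 99.4% of the windows of the same length. The median over all 32817 windows in the table was 7. The upstream and downstream *Gcnt1* starts and the downstream *Fut7* start thus lay in CG-poor sequence, and *C1galt1* in a CG-dense window.

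Gene counts are summed over all transcripts, so that they do not tell which of these starts was used. The table also held windows for *Spn*, *St3gal4* and *St3gal6*, with 3, 31 and, for the 2 starts of *St3gal6*, 20 and 3 CG dinucleotides. In all, 6 of the 9 members matched, with 10 windows. *C1galt1c1*, *St3gal1* and *Selplg* had no entry. The windows were searched on both strands for the letters of 4 motifs bound by factors known in T cells: CTTTGA (TCF/LEF), AGGTGTGA (T-box), TGTGGTT (RUNX) and CCGGAA (ETS). The motifs were present in 16.0%, 1.27%, 5.27% and 14.9% of all windows. Among the 10 windows of the members, 1 held a match, CTTTGA on the opposite strand in the upstream window of *St3gal6*, 119 bases before its start. No member window held 2 motifs, so that none overlapped. No match in the *Gcnt1* and *Fut7* windows says only that these letters are not in those 300 bases.

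The first question was how the genes of this route differed between WT and KO CD8+ TILs. *Gcnt1* was the member that differed most, at almost 6 times its WT level, followed by *Fut7* at over 3 times, whereas the carriers *Selplg* and *Spn* and the core 1 genes lay within 1.3 times of WT. *St3gal1* was moderately higher, and *St3gal4* was lower on average with overlapping samples. By the rule used here, a fold above 1.5 with an edgeR adjusted p under 0.01 over all 15378 genes tested, 3 of the 9 members were called higher in KO, where 2.91% of all genes tested were, and 0 were called lower, where 1.99% of all genes were. The 4 KO and 4 WT samples did not overlap in 5 of the 9 members, as in 17.3% of all genes tested. The members were chosen with this comparison known, so that these counts describe the choice and nothing is read from them. The median log2 fold change was 0.36 over the 9 members and -0.01 over all genes tested, which likewise describes the choice.

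**Figure D1:**
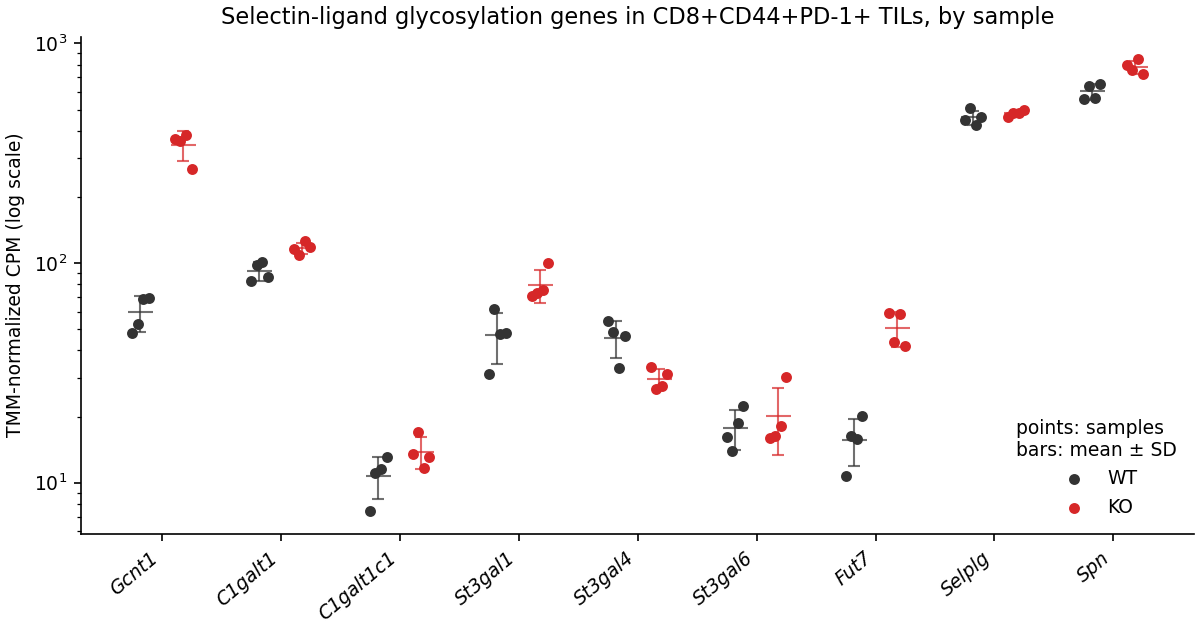
TMM-normalized CPM (log axis) of the 9 genes in each WT and KO sample, with points for samples and bars for mean ± SD (n = 4 per group). The KO points of *Gcnt1* and *Fut7* lie far above the WT points, those of *St3gal1*, *C1galt1* and *Spn* lie above by less, and the other 4 genes overlap.

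The branching gene *Gcnt1* (ENSMUSG00000038843.18; chr19:17326141-17372844, minus strand, as all gene coordinates on GRCm38) was at 48.0, 52.7, 68.9 and 69.6 CPM in S1 to S4, from 826, 968, 844 and 844 counts. In S5 to S8 it was at 369, 359, 385 and 268 CPM, from 5617, 4439, 4608 and 7620 counts. All 4 KO samples were above the highest WT sample, and the lowest of them was S8, the deepest library. The group means were 59.8 ± 11.1 and 345 ± 52.4 CPM (SD, n = 4 each), a log2 fold change of 2.53 (SE 0.14), which is a fold of 5.78. Leaving out single samples moved this value only between 2.44 and 2.64, with 2.64 without S8.

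The acceptor of this step is core 1, and the genes that make it differed less between the groups. *C1galt1* (ENSMUSG00000042460.5; chr6:7844842-7875687, plus strand) was at 82.9, 98.0, 101 and 86.3 CPM in WT and 116, 109, 125 and 118 CPM in KO. The groups did not overlap, but the difference was small (0.35 on the log2 scale, SE 0.10) and below the fold needed for a call. Its chaperone gene *C1galt1c1* (ENSMUSG00000048970.9; chrX:38630785-38635087, minus strand) had few counts, 128 to 374 per sample. It was at 7.44, 11.1, 11.5 and 13.0 CPM in WT and 13.5, 17.0, 11.7 and 13.2 CPM in KO, with overlapping groups and a log2 fold change of 0.36 (SE 0.23). The RPKM ratio of *C1galt1* to *C1galt1c1* within a sample was 2.10 ± 0.439 in WT and 2.06 ± 0.424 in KO.

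The 3 sialyltransferase genes had log2 fold changes of both signs. The *St3gal1* product sialylates core 1, the same acceptor that the Gcnt1 product branches. *St3gal1* (ENSMUSG00000013846.10; chr15:67102875-67176830, minus strand) was at 31.3, 61.7, 47.4 and 48.0 CPM in WT and 70.5, 72.7, 75.1 and 100.03 CPM in KO. The lowest KO sample, S5, was above the highest WT sample, S2, and S8 was the highest of all. The log2 fold change was 0.76 (SE 0.18), just inside the rule for a call. The call was lost under upper quartile scaling and without S1, S3, S4, S6, S7 or S8. In these settings the log2 fold change was 0.61 to 0.80, a fold still above 1.5, and the adjusted p missed the rule.

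The products of *St3gal4* and *St3gal6* sialylate the extended chains that become sialyl Lewis x. *St3gal4* (ENSMUSG00000032038.7; chr9:35046576-35119268, minus strand) was at 54.2, 48.5, 33.4 and 46.7 CPM in WT and 33.6, 26.8, 27.6 and 31.2 CPM in KO. It was the one member with a lower mean in KO, and S3, the lowest WT sample, lay just under S5, the highest KO sample. Its log2 fold change was -0.62 (SE 0.16). The fold was above 1.5, but *St3gal4* missed the adjusted p of the rule and was not called. It passed without S3, at -0.74. *St3gal4* shares 412 bases, or 14.1% of its exon length, with *4930581F22Rik* on the opposite strand, which was at 24.4, 21.3, 22.7 and 14.1 CPM in WT and 33.6, 27.7, 30.5 and 31.3 CPM in KO. That gene differed in the other direction without a call (log2 fold change 0.58, edgeR adjusted p = 0.0467). The libraries kept strand, but whether the counting used strand is not given in the sources used here, so that reads from the shared bases may be assigned to either gene.

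*St3gal6* (ENSMUSG00000022747.17; chr16:58468125-58524243, minus strand) was the lowest member per length in both groups. It was at 16.1, 13.9, 18.8 and 22.4 CPM in WT and 16.0, 16.3, 18.2 and 30.4 CPM in KO. The groups overlapped, and the log2 fold change of 0.19 (SE 0.23) turned to -0.078 without S8, which alone lay above the WT samples. A share of 26.0% of its exon length overlaps *Dcbld2* on the opposite strand, which had 0.14 on the log2 scale. Taken as shares of the summed RPKM of the 3 genes, *St3gal1* made up 27.2% ± 6.90 in WT and 46.2% ± 2.72 in KO (SD, n = 4). *St3gal4* made up 61.3% ± 7.82 in WT and 41.0% ± 4.84 in KO. In neither case did the shares of the groups overlap. Thus *St3gal4* was the most abundant of the 3 in every WT sample, and *St3gal1* and *St3gal4* overlapped in KO.

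*Fut7* (ENSMUSG00000036587.13; chr2:25423267-25426374, plus strand), whose product adds the fucose that completes sialyl Lewis x, was at 10.7, 16.2, 15.8 and 20.04 CPM in WT, from 184, 298, 194 and 243 counts. In KO it was at 59.2, 43.8, 58.5 and 41.9 CPM, from 902, 542, 701 and 1191 counts. All 4 KO samples were above all WT samples, with S8 the lowest and S6 next to it. The means were 15.7 ± 3.84 and 50.9 ± 9.28 CPM (SD, n = 4 each) and the log2 fold change was 1.70 (SE 0.19), or 1.55 to 1.83 on leaving out single samples.

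The carriers were the most abundant members, and *Selplg* had the smallest difference of all 9. *Selplg* (ENSMUSG00000048163.13; chr5:113818536-113832644, minus strand) was at 446, 507, 427 and 464 CPM in WT and 462, 484, 482 and 499 CPM in KO. The groups overlapped and the log2 fold change was 0.06 (SE 0.09). *Spn* (ENSMUSG00000051457.7; chr7:127132232-127137823, minus strand), whose core 2 glycoform is a known marker of effector CD8+ T cells, was at 558, 639, 566 and 654 CPM in WT and 798, 754, 847 and 725 CPM in KO. All KO samples were above all WT samples, by a log2 fold change of 0.37 (SE 0.09), which is below the fold needed for a call. RNA levels do not show the glycans on either protein, which were not analysed here.

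The members just inside and just outside the rule were thus *St3gal1*, with a fold of 1.69 upward, and *St3gal4*, with a fold of 1.53 downward. Both folds were above 1.5, and *St3gal4* missed the rule on its adjusted p.

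Compared per length, the carriers stood far above the enzymes. In WT the order of mean RPKM was *Spn* (129 ± 10.6), *Selplg* (108 ± 7.91), *St3gal4* (15.6 ± 3.02), *C1galt1* (15.1 ± 1.43), *Gcnt1* (10.4 ± 1.92), *C1galt1c1* (7.43 ± 1.64), *St3gal1* (6.88 ± 1.82), *Fut7* (6.67 ± 1.63) and *St3gal6* (2.88 ± 0.596; all SD, n = 4). The samples of *St3gal4* and *C1galt1* overlapped, as did each pair of neighbours from *Gcnt1* down to *Fut7*, so that their order is not fixed by these data. In KO *Gcnt1* ranked next after the carriers, at 59.9 ± 9.10 RPKM, under *Spn* (167 ± 11.3) and *Selplg* (113 ± 3.61) and above *Fut7* (21.6 ± 3.94), with no overlap on either side. *C1galt1* followed at 19.2 ± 1.14, overlapping *Fut7*, and then *St3gal1* (11.6 ± 2.01), *St3gal4* (10.2 ± 1.08) and *C1galt1c1* (9.55 ± 1.54), each overlapping the next. *St3gal6* stayed last at 3.27 ± 1.11 RPKM. Set among the 15364 tested genes with an exon length, the mean level of *Gcnt1* was above 72.4% of genes in WT and 96.1% in KO, and that of *Fut7* was above 60.6% and 87.0%.

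**Figure D2:**
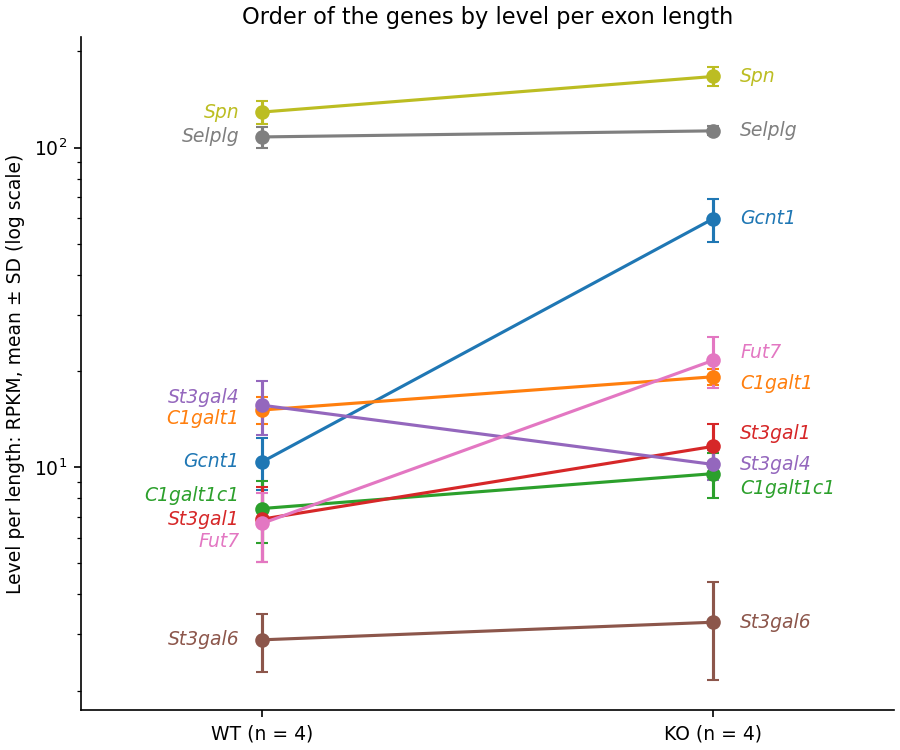
Mean RPKM ± SD (log axis, n = 4 per group) of the 9 genes in WT and KO. *Gcnt1* passes *C1galt1* and *St3gal4* from WT to KO. *Fut7* passes *C1galt1c1*, *St3gal1* and *St3gal4*, and it passes *C1galt1* in the mean, with overlapping KO samples. *Spn*, *Selplg* and *St3gal6* keep their places at the top and the bottom.

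Ratios within a sample leave out the scaling between libraries. The RPKM ratio of *Gcnt1* to *C1galt1*, the branching over the core 1 enzyme, was 0.613, 0.569, 0.723 and 0.853 in the WT samples, in order, and 3.38, 3.49, 3.24 and 2.41 in the KO samples. The branching gene was thus below the core 1 gene in every WT sample and above it in every KO sample. The ratio of *Gcnt1* to *St3gal1*, whose products use the same acceptor, was 1.82, 1.02, 1.73 and 1.72 in WT and 6.22, 5.87, 6.09 and 3.19 in KO. It was higher in all 4 KO samples although *St3gal1* was itself higher in KO, and S8 was nearest to WT.

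The ratio of *Fut7* to *Selplg* was 0.0618 ± 0.0147 in WT and 0.192 ± 0.0400 in KO (SD, n = 4), and that of *Gcnt1* to *Selplg* was 0.0969 ± 0.0216 and 0.533 ± 0.0921. Neither overlapped between the groups, so that more enzyme transcript per carrier transcript was present in every KO sample. The ratio of *Spn* to *Selplg* was 1.20 ± 0.0669 in WT and 1.48 ± 0.131 in KO. The ratio of *St3gal4* to *St3gal6* was 5.66 ± 1.85 and 3.32 ± 0.937, with overlapping samples.

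**Figure D3:**
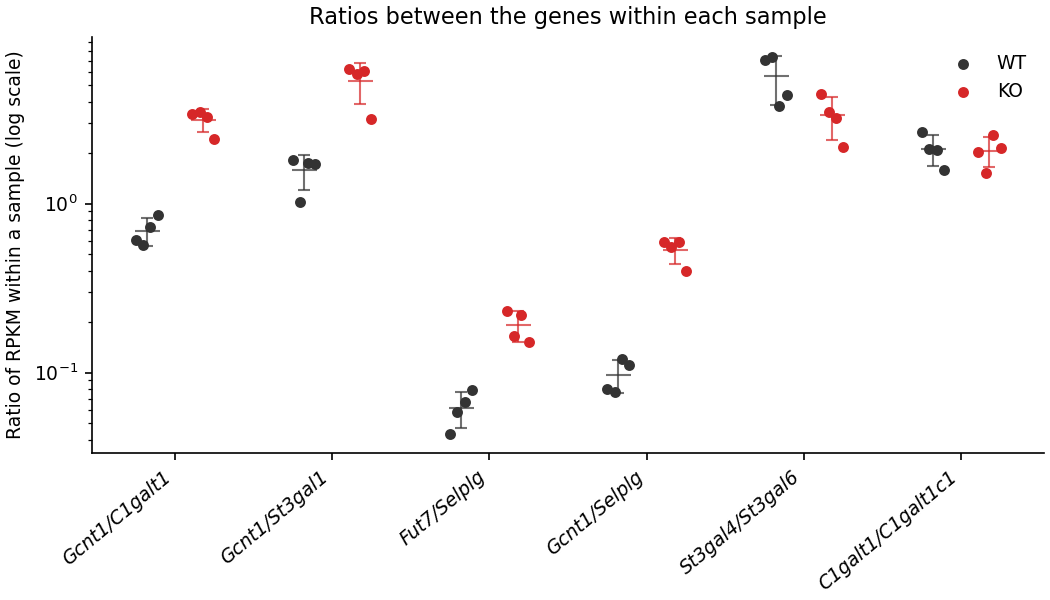
Ratios of RPKM between 2 genes within each sample (log axis), with points for samples and bars for mean ± SD (n = 4 per group). The 4 ratios with *Gcnt1* or *Fut7* as numerator are higher in every KO sample, and the other 2 overlap between the groups.

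RNA of other cells differed between the groups and is set beside these values. Of 17 myeloid marker genes 16 were tested, and 11 were called lower in KO. Their summed level was 520.2, 645, 1603 and 881 CPM in the WT samples and 385, 411, 304 and 297 CPM in the KO samples. Of the markers of other lists, *S100a9* and *Cxcr2* (neutrophils), *Krt8* (tumor epithelium), *Pdgfrb* (fibroblasts) and *Sele* (endothelium) were at 0 counts in all samples. The 3 CD4 and regulatory T cell markers summed to 5.58 to 9.70 CPM in WT and 16.5 to 47.1 CPM in KO, and 1 of them, *Cd40lg*, was called higher. *Cd4* itself was higher in every KO sample (means 4.54 and 14.3 CPM) without a call (edgeR adjusted p = 0.0161). Of 4 endothelial markers 1 was tested, *Pecam1*, which T cells can also express, and it was called higher in KO. Lists for B cells, NK cells, neutrophils, tumor epithelium and fibroblasts had no called member and overlapped between groups, and of 2 erythroid markers 1 was called lower. Fewer cells of a type and less RNA per cell cannot be told apart in such samples. Between the groups, *Gcnt1* and *Fut7* were higher in KO, where the CD4 and regulatory T cell sum was also higher and the myeloid sum was lower. Within the groups the samples did not keep to the order of the myeloid sum. In WT, S1 had the lowest myeloid sum and also the lowest *Gcnt1* (48.0 CPM) and *Fut7* (10.7 CPM). S3, with the highest sum, had 68.9 CPM of *Gcnt1*, near the highest WT value. In KO, S8 had the lowest sum and also the lowest *Gcnt1* (268 CPM) and *Fut7* (41.9 CPM), whereas S7, with the next lowest sum, had the highest *Gcnt1* (385 CPM). The part of these cells in the differences was not tested.

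The next question was whether other genes of the route differed. A list of 79 further genes covered the start of O-glycans, branching and extension, other sialyl- and fucosyltransferases, sugar supply, sulfation, other carriers, selectins and regulators of these genes. Of these, 60 passed the filter, 6 were called higher in KO, 1 was called lower and 53 were not called, beside 2.91% and 1.99% of all genes tested; the other 19 did not pass the filter. Their median log2 fold change was 0.024, and the groups did not overlap in 23 of 60, against 17.3% of all genes. This list too was chosen with earlier results of these data known. Its counts and the p-values given below for its genes are therefore descriptive.

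**Figure D4:**
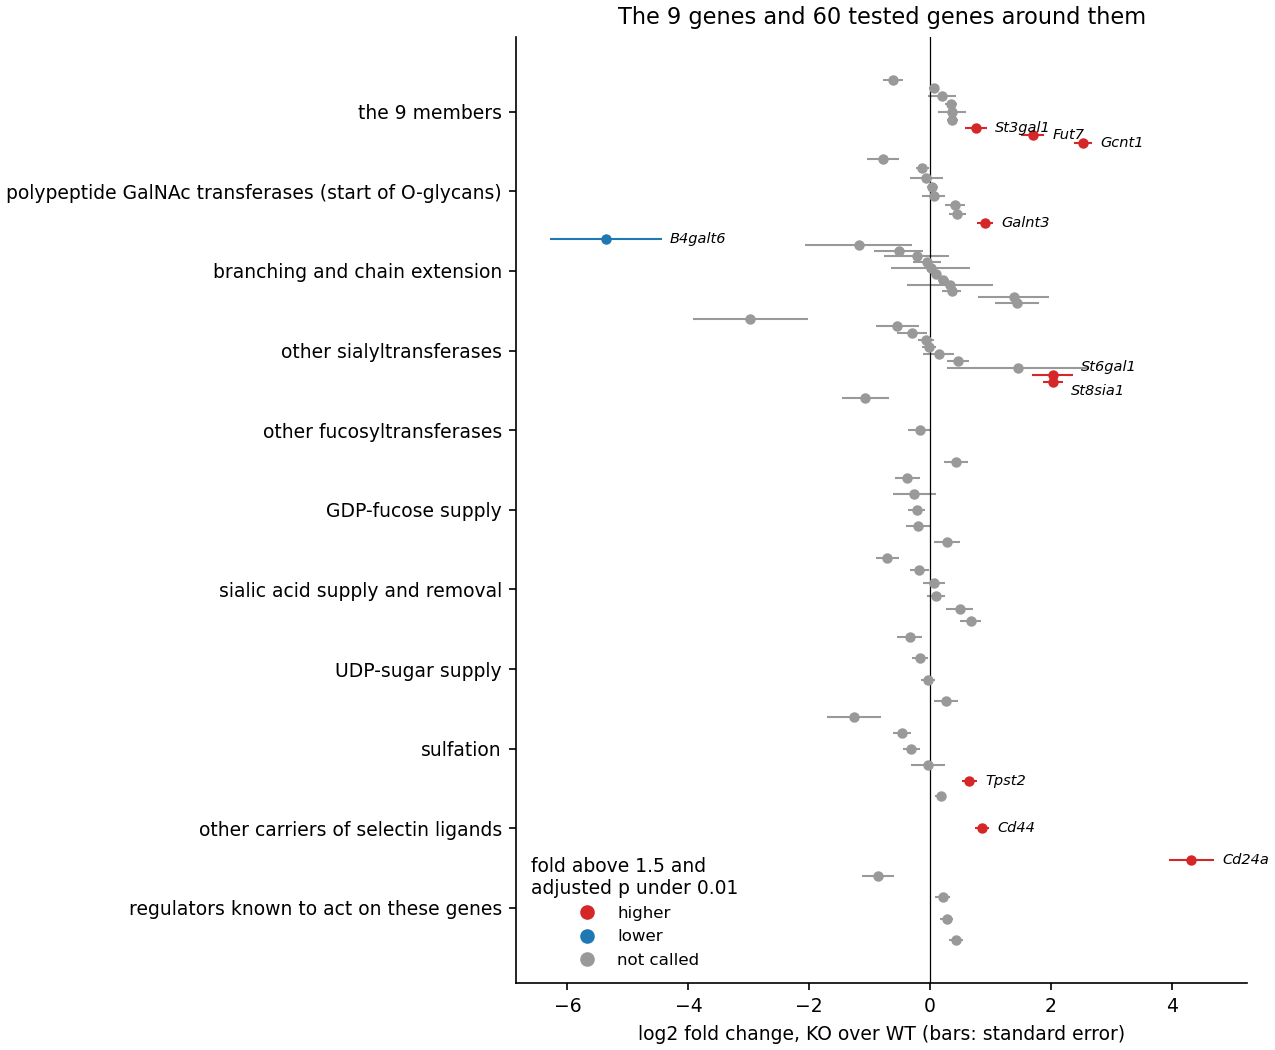
Log2 fold change of KO over WT with its standard error for the 9 members and for 60 tested genes of the list by role (n = 4 per group), in red where called higher, in blue where called lower and in grey otherwise. Called genes outside the members are *Galnt3*, *St6gal1*, *St8sia1*, *Tpst2*, *Cd44* and *Cd24a* on the right and *B4galt6* on the left.

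At the start of O-glycans, 1 of 8 tested polypeptide GalNAc transferases rose. *Galnt3* was at 62.5, 73.5, 66.5 and 86.0 CPM in WT and 157, 127, 147 and 112 CPM in KO, with all KO samples above WT (log2 fold change 0.91, SE 0.13, edgeR adjusted p = 1.52e-04). The most abundant of this family per length, *Galnt6*, was at 31.1 ± 2.11 RPKM in WT and 32.0 ± 1.74 in KO (adjusted p = 0.866, edgeR).

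Among 12 tested genes of branching and extension, *B4galt6*, a galactosyltransferase best known for making lactosylceramide, fell. It was at 3.08, 3.65, 6.45 and 3.96 CPM in S1 to S4, and it had 0 counts in S5, S6 and S7 and 8 counts, or 0.281 CPM, in S8. Its fitted log2 fold change was -5.37 (SE 0.93, edgeR adjusted p = 0.00100), a value that rests on the counts of S8: without S8 all KO samples are at 0, and the fitted -8.93 then depends on the prior count and is no bound. The summed myeloid markers moved with it: over the WT samples both were lowest in S1, then S2, S4 and S3, and both were lower in all KO samples, at 297 to 411 CPM of the myeloid sum against 520.2 to 1603 CPM in WT. On average *Cd74* and *Ctss*, which were not called, made up most of the KO sum. The part of myeloid RNA in this difference was not tested. The related *B4galt5*, the most abundant gene of this role, was at 63.4 ± 3.04 RPKM in WT and 73.9 ± 1.34 in KO without a call (adjusted p = 0.112, edgeR). The other branching transferases were low: *Gcnt3* had 0 counts in all samples, and *Gcnt2*, which makes the I branch, was at 5.17, 6.32, 2.28 and 1.90 CPM in WT and 11.0, 9.70, 9.51 and 12.8 CPM in KO without passing the threshold (log2 fold change 1.44, edgeR adjusted p = 0.0158).

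Among 10 other tested sialyltransferases, 2 rose. *St6gal1*, which adds sialic acid to N-glycans in another linkage, was at 4.65, 17.5, 22.5 and 16.7 CPM in WT and 76.9, 42.2, 45.3 and 83.6 CPM in KO (log2 fold change 2.03, SE 0.34, edgeR adjusted p = 7.73e-04). All KO samples were above WT, and S1 stood lowest. *St8sia1*, the ganglioside GD3 synthase, was at 15.0, 16.8, 13.9 and 12.3 CPM in WT and 54.7, 63.5, 48.0 and 71.3 CPM in KO, again without overlap (log2 fold change 2.03, SE 0.16, edgeR adjusted p = 4.48e-07). *St3gal5*, which makes the ganglioside that the St8sia1 product extends, had 19 to 29 counts per WT sample and 0 to 7 per KO sample and was not called (edgeR adjusted p = 0.0530). The gene of this role with the highest mean per length over both groups, *St6galnac4*, whose product adds a further sialic acid to sialylated core 1, was at 10.2 ± 0.687 RPKM in WT and 10.1 ± 0.899 in KO without a call (adjusted p = 0.953, edgeR), and its KO mean was below that of *St6gal1*, at 12.6 ± 4.33 RPKM.

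Of the other fucosyltransferases 3 of 7 passed the filter and none of these 3 was called. *Fut4*, which like *Fut7* adds fucose in the alpha-1,3 linkage, was at 4.48, 5.61, 6.36 and 6.02 CPM in WT and 2.10, 3.15, 3.51 and 1.97 CPM in KO. The KO samples all lay under the WT samples, but it did not pass the threshold (log2 fold change -1.07, SE 0.39, edgeR adjusted p = 0.0878). The RPKM ratio of *Fut7* to *Fut4* within a sample was 4.13, 5.01, 4.30 and 5.76 in WT and 48.8, 24.0, 28.9 and 36.8 in KO, so that *Fut7* was the more abundant of the pair in all 8 samples. Beyond these, *Fut11* had the highest mean per length over both groups, at 4.82 ± 0.701 RPKM in WT and 4.29 ± 0.873 in KO, but its KO mean was below that of *Fut8* (3.78 ± 1.11 in WT and 5.09 ± 0.618 in KO).

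Of the supply genes, *Slc35c1*, the Golgi transporter of GDP-fucose, was at 12.2 ± 1.18 and 10.4 ± 0.536 RPKM in WT and KO, *Cmas*, which activates sialic acid, at 10.2 ± 1.89 and 11.0 ± 1.34, and *Uap1*, which makes UDP-GlcNAc, at 18.7 ± 2.45 and 16.7 ± 2.46. The sialidases missed the threshold in opposite directions, with log2 fold changes of -0.71 for *Neu1* (edgeR adjusted p = 0.0213) and 0.67 for *Neu3* (edgeR adjusted p = 0.0174). In both the groups did not overlap.

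Among 5 tested sulfation genes *Tpst2*, one of the tyrosine sulfotransferases that prepare PSGL-1 for P-selectin, rose. It was at 66.3, 54.1, 62.8 and 51.1 CPM in WT and 85.4, 101, 78.8 and 101 CPM in KO (log2 fold change 0.65, SE 0.13, edgeR adjusted p = 0.00253). This call was lost without S2, S4 or S6, with an adjusted p of at most 0.0146 (edgeR). Its paralog *Tpst1* was lower in every KO sample without a call (log2 fold change -1.26, edgeR adjusted p = 0.0853).

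Of 3 tested other carriers 2 rose. *Cd44* was at 399, 409.5, 437 and 488 CPM in WT and 952, 679, 839.7 and 669.8 CPM in KO (log2 fold change 0.86, SE 0.12, edgeR adjusted p = 1.07e-04), in cells that had all been sorted for CD44 protein. *Cd24a*, a small mucin-like protein that can carry P-selectin ligands, was at 1.05, 2.18, 2.45 and 0.495 CPM in WT and 20.4, 34.7, 24.9 and 44.7 CPM in KO, the largest increase of the list (log2 fold change 4.32, SE 0.38, edgeR adjusted p = 8.74e-07). *Cd24a* has processed copies elsewhere in the genome, and how shared reads were assigned is not given in the sources used here. Of the selectin genes, *Selp* had at most 16 counts in a sample and *Sele* had 0.

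**Figure D5:**
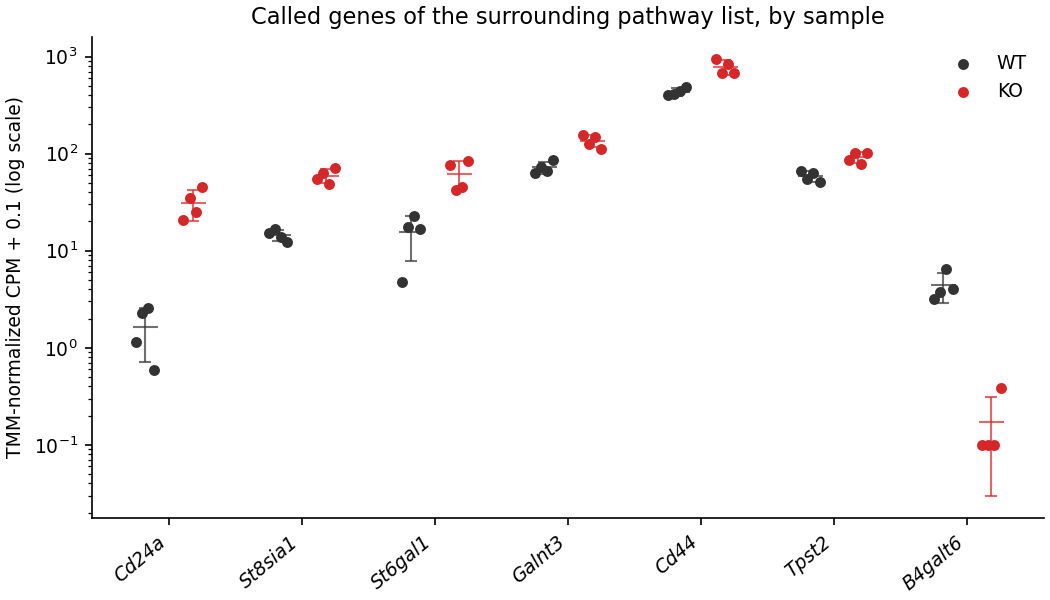
TMM-normalized CPM plus 0.1 (log axis) in each WT and KO sample for the 7 called genes of the surrounding list, with points for samples and bars for mean ± SD (n = 4 per group). The groups do not overlap in any of them, and for *B4galt6* the KO samples other than S8 lie at the added 0.1.

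The regulators known to act on *Gcnt1*, *Fut7* or the sialyltransferases were not called. *Tbx21*, encoding T-bet, was at 182, 149, 143 and 150.04 CPM in WT and 218, 181, 177 and 180.1 CPM in KO (log2 fold change 0.28, edgeR adjusted p = 0.110). *Stat4*, *Gata3* and *Eomes* had log2 fold changes of 0.43, 0.21 and -0.86, with edgeR adjusted p of 0.0218, 0.356 and 0.0477.

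Last, the profile of *Gcnt1* over the 8 samples was compared with that of 10940 genes with a mean log2 CPM above 2, by Pearson's r of log2 CPM. All points share the 2 genotypes and the libraries, so that r mostly restates the difference between genotypes, and it is given as a description. The 5 most similar genes were *Gm20139* (r = 0.997), *Arhgef11* (0.992), *Pacsin1* (0.990), *Ptgfrn* (0.988) and *Fam129b* (0.988). The 5 most opposite were *Emilin2* (-0.989), *Bend4* (-0.982), *Dnmt3a* (-0.979), *Lilrb4a* (-0.977) and *Il4ra* (-0.977). After subtracting the mean of each genotype, r with *Gm20139* was 0.907, and with the other 9 it was between -0.719 and 0.707. Among the members *Fut7* was most like *Gcnt1* (r = 0.977, rank 27 of 10940, and 0.771 within genotypes), followed by *Spn* (0.919, rank 265), and *St3gal4* was most unlike it (-0.868).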

How the data were processed

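RNA-seq gene counts of sorted CD8+CD44+PD-1+ TILs from 4 WT and 4 KO samples were used. The deposited table holds raw counts per GENCODE gene, which the authors made with featureCounts from read pairs that STAR had aligned to GRCm38; nothing was normalized or pooled further. Columns are numbered S1 to S8. WT and KO columns were told apart by the numbering of the study's own sample plot and could not be matched to replicate numbers of the labels. The number of other sample columns left unused was 0.

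Exon lengths and coordinates came from GENCODE M21, which matched 55154 of 55335 gene IDs, and promoters from RefSeq on GRCm38.p6. Genes were filtered with filterByExpr, scaled with TMM and tested with the quasi-likelihood test of edgeR 4.0.16 in R 4.3.3, without covariates, and p-values were adjusted by Benjamini-Hochberg over 15378 genes. The SE of a log2 fold change is its size divided by the root of the F statistic. The fit was tested on simulated data. P-values set the difference between groups against the spread between these samples. WT samples were pools of 2 mice and KO samples single mice, so that this spread is not between single mice in both groups. Floors of 3 counts cover counting error only.

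The members and gene lists were chosen with earlier results of these data known, and 1 gene of the list is not reported here. Genes named in the text are all members, called genes of the list, the most abundant gene per role by the mean over all samples, the 5 genes most and the 5 least like *Gcnt1*, and *Kdm1a*; *Gcnt2*, *Gcnt3*, *Fut4*, *Fut8*, *St3gal5*, *Tpst1*, *Neu1*, *Neu3*, *Selp*, *Sele*, *Stat4*, *Gata3*, *Eomes*, *Dcbld2* and *4930581F22Rik* and single markers were named after their values were seen. Alternatives were other scalings, a GC offset, no filter, an edgeR likelihood ratio test, DESeq2 1.42.0, an adjusted p threshold of 0.05 and leaving out each sample.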

Additional observations from a re-analysis of the deposited data

Results flagged for a closer look

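Of 32 groups of 4 samples, for the 9 members and the 7 called genes of the list in each genotype, 1 held a sample far from the others, where chance gives 1.6 at 1 in 20. This was *B4galt6* in S8 of the KO group, at 0.281 CPM, while the other 3 KO samples were at 0, so that the gap from S8 to its nearest neighbour made up the whole range of the group (a ratio of 1). With the other 3 at 0 this ratio is 1 for any value of S8 above 0, so that the chance rate does not apply to this group. S8 was the deepest library, and its 8 counts of this gene compare with 48 to 79 counts in the WT samples. The cause was not tested.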

How the results depend on the processing

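Over 16 alternatives, 240 of 256 log2 fold changes of the 9 members and the 7 called list genes kept their direction and their side of the rule, among them all of *Gcnt1* (2.44 to 2.64) and *Fut7* (1.55 to 1.83). The members were chosen on this difference and the list genes because they were called, in these same samples. These counts thus describe the processing alone and are no independent support. The adjusted p threshold of 0.05 changes the rule and not the fit. *St3gal6* reversed to -0.078 without S8 (up to 0.32 without other samples), *St3gal1* lost its call in 7 alternatives and *Tpst2* in 3, and *St3gal4* gained one in 5. The cause was not tested. Genes lower in KO numbered 306, against 531 with no filter on low counts, 461 with DESeq2, 481 with the likelihood ratio test and 551 at an adjusted p threshold of 0.05, where 695 genes were higher instead of 447. Lower genes of the list numbered 4, 3, 3 and 3 in these settings instead of 1, and lower members 1 in each instead of 0. Leaving out single samples gave 347 to 452 higher and 199 to 303 lower genes (199 without S2), 5 to 7 higher and 1 to 3 lower list genes (3 without S8), and 2 to 3 higher and 0 to 1 lower members (1, *St3gal4*, without S3). Between scalings the median log2 fold change of all genes moved by at most 0.02. No paired analysis was possible, because the labels state no animal, litter or day shared by a WT and a KO sample. The columns also carry none of the replicate numbers of the labels. Depth limits genes with few counts, among them *C1galt1c1*, with 128 to 374 counts per sample.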
